A study of Mus musculus with 15 samples.

Results

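Promoters of genes that were expressed in both cell types, and yet showed no nucleosome-depleted region upstream of their start site, were followed through 15 ChIP-MNase libraries of mouse cells. Of 25881 promoters listed in the data, 13559 had a coverage score above 100, and 5495 of these had an expression value above 0.05 in dendritic cells (DCs) and above 1.6 in fibroblasts. The expression values come from public RNA-seq of non-stimulated cells, and not from the cells of these libraries. Expressed refers to these cutoffs, which are low. The fibroblast marker Col1a1 exceeds the one for DCs (0.0869), and the DC marker Cd74 the one for fibroblasts (1.88). The depth of the depleted region was expressed as D, the mean nucleosome occupancy from -150 to 0 bp of the start site divided by that from -1000 to -500 bp. A D near 1 therefore means no depletion, and a D near 0 an empty region. The 156 promoters described here (2.84% of the 5495) were chosen by D > 0.9 in all 4 pooled H3K4me1 libraries. The remaining 5339 expressed promoters, and 1579 covered promoters listed at 0 expression in both cell types, served for comparison.

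Nucleosomes were recovered by ChIP with an antibody, followed by micrococcal nuclease (MNase) digestion, after 1 h of stimulation (st) or without it (ns). The 4 pooled libraries used an H3K4me1 antibody, and each combines 2 replicates: in vitro differentiated DCs without or with LPS (100 ng/ml), and 3T3 fibroblasts, an established embryonic line, without or with TNF-α (5 ng/ml). A further 8 single H3K4me1 libraries came from fibroblasts that carried either a control vector or 1 retroviral shRNA against both Brg1 and Brm, the alternative ATPases of the BAF remodeling complex (BAFkd), each ns and st with 2 replicates. Finally, pol-II phosphorylated at serine 7 (S7P, 2 libraries) or serine 5 (S5P, 1 library) of its C-terminal repeats was precipitated from TNF-α stimulated fibroblasts without a vector. Since every single library is of fibroblasts, the DC values rest on the pooled libraries alone. The extent of the knockdown cannot be read from occupancy values. All 10 DC markers examined, such as Itgax and Cd74, ranked higher by expression in DCs than in fibroblasts, and all 10 fibroblast markers, such as Col1a1, ranked higher in fibroblasts, although Fn1 was also high in DCs (31.0, against 948 in fibroblasts) and Flt3 was low in both (0.0175 in DCs).

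Active promoters are commonly organized as a nucleosome-depleted region, where transcription factors and the preinitiation complex gain access to DNA, between an upstream (-1) and a downstream (+1) nucleosome. CpG islands, GC-rich stretches in which the CpG dinucleotide has been kept, cover the start sites of most housekeeping genes and tend to be depleted of nucleosomes, whereas CpG-poor promoters are more often covered. Remodelers such as BAF slide or evict nucleosomes at the expense of ATP. A gene can also have several start sites, of which not all are used in a given cell.

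The sequences below show what lies in the covered window. Of 11 promoters with D > 0.9 in every one of the 8 single H3K4me1 libraries, 10 had a gene symbol, and in 4 of these the window from -150 to -1 bp overlapped no annotated exon. These 4 windows are printed 5′ to 3′ on the strand of the gene, from the mm9 genome, with each CpG in capitals. They belong to Tpi1, the glycolytic enzyme triosephosphate isomerase (chr6:124764315-124764464, minus strand), Psmb10, a catalytic subunit of the immunoproteasome (chr8:108462293-108462442, minus strand), Il18bp, a secreted binding protein of the cytokine IL-18 (chr7:109166670-109166819, minus strand), and Heatr6 (chr11:83566990-83567139, plus strand).
Tpi1: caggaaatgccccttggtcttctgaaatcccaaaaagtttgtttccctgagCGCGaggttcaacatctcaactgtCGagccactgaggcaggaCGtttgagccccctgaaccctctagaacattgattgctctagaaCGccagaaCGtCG
Psmb10: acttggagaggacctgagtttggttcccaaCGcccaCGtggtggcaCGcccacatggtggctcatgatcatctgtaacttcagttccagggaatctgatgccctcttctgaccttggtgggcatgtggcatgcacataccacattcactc
Il18bp: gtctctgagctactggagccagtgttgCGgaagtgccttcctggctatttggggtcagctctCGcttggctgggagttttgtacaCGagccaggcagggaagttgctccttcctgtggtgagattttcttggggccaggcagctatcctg
Heatr6: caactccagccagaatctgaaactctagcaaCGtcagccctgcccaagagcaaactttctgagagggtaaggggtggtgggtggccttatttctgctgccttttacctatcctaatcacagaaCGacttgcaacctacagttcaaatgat
The windows hold 7, 3, 3 and 2 CpG, respectively. Heatr6 alone of the 4 met the CpG island criterion used here, within 200 bp of its start (GC content 57.5%, CpG observed to expected ratio 0.637). The median over the 156 promoters was 5.00 CpG in the window, against 12.0 at the other expressed promoters and 2.00 at those listed at 0.

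Another 2 pairs of start sites show the same window at another start of the same gene. They were taken from 4 pairs in which neither window overlapped an annotated exon. Hdac7 encodes a class IIa histone deacetylase. The start without depletion (chr15:97645295-97645444, minus strand) has 1 CpG in its window, and the start 16904 bp upstream (chr15:97662199-97662348) has 16. Ascc1 encodes a subunit of a transcriptional coactivator complex. Its start without depletion (chr10:59465404-59465553, plus strand) and the start 522 bp downstream (chr10:59465926-59466075) hold 9 and 10 CpG.
Hdac7 start without depletion: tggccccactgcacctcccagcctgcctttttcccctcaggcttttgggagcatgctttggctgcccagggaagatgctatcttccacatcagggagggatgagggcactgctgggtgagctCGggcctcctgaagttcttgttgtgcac
Hdac7 further start: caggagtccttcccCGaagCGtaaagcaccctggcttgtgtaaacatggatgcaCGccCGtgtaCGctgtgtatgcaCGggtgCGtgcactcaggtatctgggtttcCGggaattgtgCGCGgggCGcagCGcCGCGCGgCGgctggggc
Ascc1 start without depletion: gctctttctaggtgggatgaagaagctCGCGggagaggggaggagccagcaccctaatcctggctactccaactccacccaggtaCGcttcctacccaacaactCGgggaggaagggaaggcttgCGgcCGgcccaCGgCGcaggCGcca
Ascc1 further start: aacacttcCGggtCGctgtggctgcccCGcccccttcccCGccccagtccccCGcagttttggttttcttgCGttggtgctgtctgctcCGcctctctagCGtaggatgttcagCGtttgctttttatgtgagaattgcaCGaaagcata
The median D over the single H3K4me1 libraries was 0.918 at the first Hdac7 start and 1.31 at its CpG-rich start, so neither was depleted. At Ascc1, it was 0.935 at the first start and 0.408 at the second. In the printed pairs, a CpG-rich window was thus found with and without depletion. The pairs not printed were Iqsec1 and Emp3. At Iqsec1 the chosen start had 9 CpG and a median D of 0.718, and the further start 7 CpG and 0.573. At Emp3 these values were 1 CpG and 0.927, and 3 CpG and 0.680.

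In the libraries that were used to choose them, the 156 promoters had a median D of 1.26 in DC ns, 1.28 in DC st, 1.36 in fibroblasts ns and 1.40 in fibroblasts st. The other expressed promoters were at 0.396, 0.327, 0.328 and 0.194. These values are fixed by the choice and describe it. Just inside the threshold lay Spcs1, a signal peptidase subunit (lowest D 0.902, in fibroblasts ns), and the noncoding A930004D18Rik (0.902, in fibroblasts st). Just outside lay the NM_001177370 start of Nfkb2, an NF-κB subunit (0.896, in DC st), and the NM_001080774 start of the myosin Myo1c (0.896, in fibroblasts ns). The flank was empty in at least 1 pooled library at 11 expressed promoters, which leaves D undefined there, and 1 of these was above 0.9 in the other libraries.

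The single libraries were not part of the choice. In each of the 8 single H3K4me1 libraries the median D of the 156 promoters was higher than that of the other expressed promoters. It ranged from 0.965 (control ns 1) to 1.12 (BAFkd ns 2), against 0.259 (control ns 2) to 0.594 (control ns 1) at the others. D exceeded 0.9 at 53.2% to 67.3% of the 156 promoters per library, and at 19.9% to 30.9% of the others. The median D of the promoters listed at 0, between 0.897 and 0.954, lay closer to that of the 156 promoters than the other expressed promoters did.

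**Figure D1:**
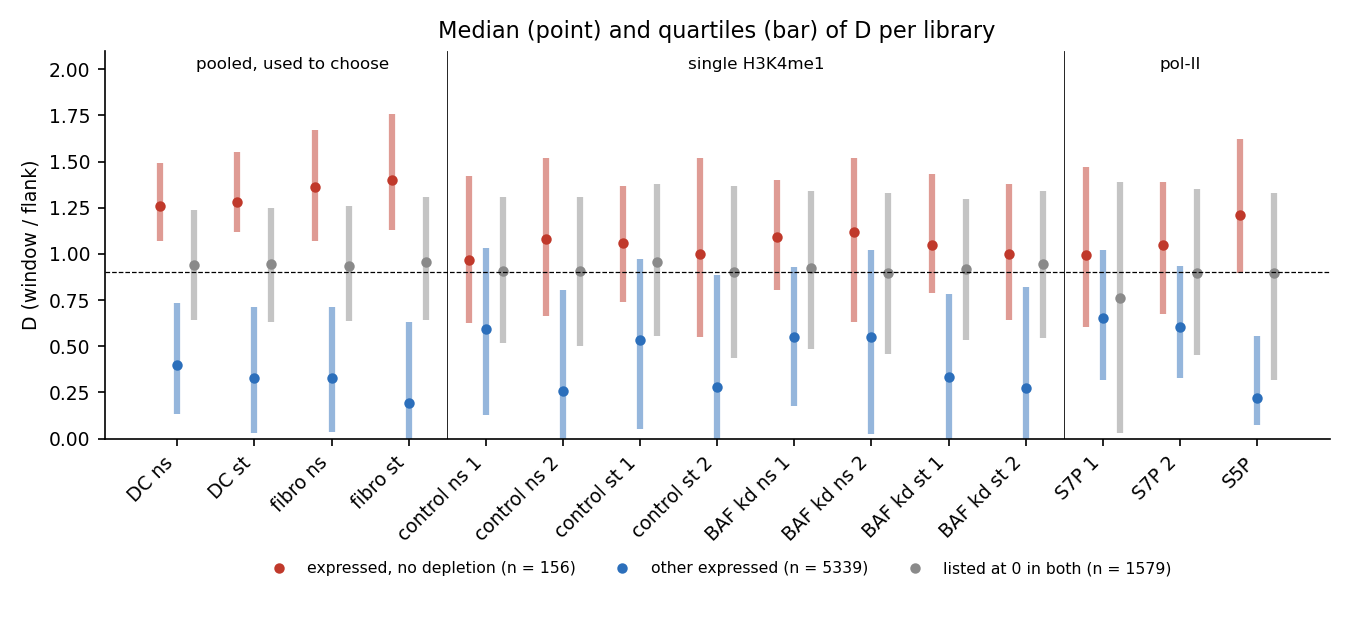
Median (point) and quartiles (bar) of D, the occupancy at -150 to 0 bp over that at -1000 to -500 bp (no unit), in each of the 15 libraries for 156 expressed promoters without depletion, 5339 other expressed promoters and 1579 promoters listed at 0 in both cell types; the dashed line marks 0.9. In all 11 single libraries the red median, 0.965 to 1.21, lies above the blue one, 0.220 to 0.653.

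The number of single libraries above 0.9 differed between the promoters. Of the 156 promoters, 11 (7.05%) had D > 0.9 in all 8 single H3K4me1 libraries and 60 (38.5%) in 6 or more, with a median of 5 libraries. For the other expressed promoters the corresponding shares were 0.356% and 5.09%, with a median of 2 libraries. Of the 1579 promoters listed at 0, 41 exceeded 0.9 in all 8 and 371 (23.5%) in 6 or more, where an undefined D was counted as not above 0.9. At the opposite end, 18 of the 156 (11.5%) exceeded 0.9 in 2 or fewer of the 8 libraries, and 5 in no library. Between replicates, the log2 ratio of window to flank differed with an SD of 1.01 to 1.21 among the 156 promoters, and the correlation of replicates across these promoters was 0.116 to 0.236 (0.233 to 0.383 across 13295 promoters). The value of a single promoter in a single library is therefore imprecise. The files hold relative occupancies and no read counts, so that the number of reads behind a value cannot be read from them. The share of bins with signal was 63.5% to 81.2% in single libraries and 82.0% to 90.2% in the pooled ones.

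By the medians, the high D went with a covered window and not with a low flank. Averaged over the 8 single H3K4me1 libraries, the median window occupancy (relative to the library mean) was 1.11 at the 156 promoters (quartiles 0.916 and 1.32), 0.543 at the other expressed promoters (0.340 and 0.802) and 0.972 at those listed at 0. The flank was at 1.04, 1.06 and 1.03, respectively. The values had been scaled to the surrounding 1 kb, which may in part hold the flank near 1, an effect that was not tested. At single promoters the flank could be low. In control st 2 it was empty at Cep290, Dtnb, Golga5 and Adcy9. In the pooled library of fibroblasts st, which served for the choice, D was 86.3 at Jdp2, 15.2 at F5 and 13.5 at Zbed3. It was also far above 1 there at Kdm3a and Zbtb37. Such ratios require a flank far below the window, so a low flank can contribute to the choice of a promoter. How often it did so among the 156 promoters was not tested. Downstream of the start site, from +50 to +200 bp, the position of the +1 nucleosome, the median occupancy was 0.984 at the 156 promoters and 1.21 at the other expressed promoters.

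In the mean profile of the 8 single H3K4me1 libraries, extremes were sought within 300 bp of the start. The other expressed promoters had a minimum of 0.532 at -75 bp and a maximum of 1.53 at +135 bp. The 156 promoters had a maximum of 1.22 at -105 bp, inside the window that chose them, and their downstream maximum reached 1.10 at +145 bp. Their lowest upstream value in this range was 0.843 at -225 bp. Promoters listed at 0 stayed between 0.878 and 0.981 over the same 300 bp upstream of the start. Promoters without signal in a library enter this mean as 0, which lowers it. D was defined at 1449 to 1468 of the 1579 per single H3K4me1 library. The lowest occupancy within 500 bp of the start, scanned with a 150 bp window, was centered between -150 and 0 bp at 16 of the 156 promoters (10.3%), upstream of it at 67 (42.9%) and downstream of the start at 73 (46.8%). At the other expressed promoters it was centered between -150 and 0 bp in 50.3% of cases.

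**Figure D2:**
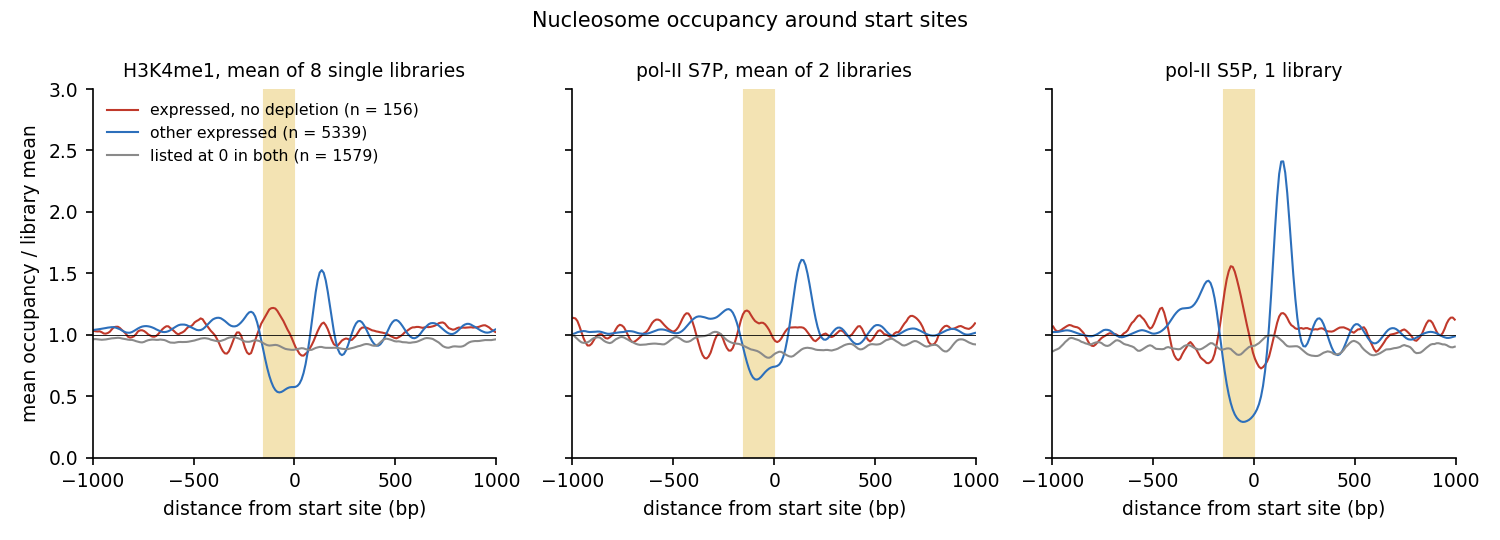
Mean occupancy divided by the library mean (no unit) against the distance from the start site (bp, in transcription direction), for H3K4me1 (mean of 8 libraries), pol-II S7P (mean of 2) and pol-II S5P (1 library); the shaded band is the window from -150 to 0 bp. The red curve of the 156 promoters peaks inside the band in all 3 panels (1.22, 1.20 and 1.56), where the blue curve of the other expressed promoters dips to 0.532, 0.636 and 0.292.

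Pol-II chromatin was examined to find out whether the promoters lack depletion also on chromatin recovered with polymerase. On S7P chromatin the 156 promoters had a median D of 0.996 and 1.05 (2 libraries), and on S5P chromatin of 1.21, against 0.653, 0.603 and 0.220 at the other expressed promoters. D exceeded 0.9 in all 3 pol-II libraries at 54 of the 156 (34.6%), at 5.27% of the other expressed promoters and at 9.10% of the 13295 promoters with signal in all single libraries, among which are all 156. D was below 0.5 in all 3 pol-II libraries at 3 of the 156 (1.92%), Bex3, C1s1 and H60b, compared with 20.1% of the other expressed promoters and 13.7% of the 13295. Bex3, C1s1 and H60b were also among the 9 of 156 (5.77%) with D < 0.5 in both control st H3K4me1 libraries, where the share was 32.8% at the other expressed promoters and 21.3% among the 13295. The antibody goes together with the type of sequencing (H3K4me1 single-end, pol-II paired-end) and with the control vector, so these cannot be told apart. Chromatin was precipitated in fragments of several kb, so polymerase on a neighboring or host transcript can also recover a start. Of the 156 starts, 52 lay inside a longer transcript. Whether the polymerase was at the listed start was not tested.

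Tested promoter by promoter with limma on the log2 ratio of window to flank, no promoter differed between S7P and control st H3K4me1 chromatin at an adjusted p below 0.05 (0 of 156, 0% of all 13295 promoters). At an unadjusted p below 0.05, 3 of the 156 (1.92%) were found, and 8.73% of all promoters. All 3 were higher in S7P. The median log2 difference was 0.02 at the 156 promoters (quartiles -0.66 and 0.55), 0.56 at the other expressed promoters and 0.20 over all 13295. For S5P against control st there was no call either (0 of 156, 0% of all). At an unadjusted p below 0.05 there were 6 of 156 (3.85%; 4 lower, 2 higher), and 6.56% of all promoters. The median difference was 0.26 at the 156 promoters, -0.22 at the other expressed promoters and -0.09 over all. Centering each library on its median raises every promoter by 0.45 here, which makes the 3 medians 0.71, 0.23 and 0.36, so that the sign depends on the scaling except at the 156 promoters. Between S5P and S7P, again without a call (0%), 2 of 156 (1.28%, both lower in S5P) and 6.83% of all promoters had an unadjusted p below 0.05, and the medians were 0.29, -0.89 and -0.41 (0.80, -0.38 and 0.10 with centered libraries). Without centering, 54 of the 156 promoters had a lower and 102 a higher ratio in S5P than in S7P. The 95% interval of a single promoter had a median half-width of 2.04 (S7P) and 2.50 (S5P) on the log2 scale, and S5P is 1 library that is assumed to vary like the other groups. Its label carries no replicate number, and the methods list replicates for S5P, so that it may combine them, in which case the assumed spread would not be that of a single replicate.

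The 3 pol-II ratios lay all above or all below both control st ratios at 42 of the 156 promoters (26.9%), compared with 27.4% of the other expressed promoters and 24.3% of all 13295.

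The smallest p in both pol-II comparisons belonged to Zfp319, a zinc finger protein with a CpG island promoter (start at position 97855850 of chromosome 8, minus strand). Its D was 1.22 and 1.27 in control ns, but 0.172 and 0 after stimulation. S7P chromatin gave 0.974 and 1.25, and S5P chromatin 2.68. Control st was thus the only group of Zfp319 below 0.9, and the 3 pol-II libraries did not overlap it. The log2 difference was 2.89 ± 0.77 (SE) for S7P and 4.11 ± 0.95 for S5P, with adjusted p-values (limma) of 0.325 and 0.420. Eefsec, the elongation factor for selenocysteine, was also low in control st (D 0.0257 and 0.285) and near 1 in S7P (0.951 and 1.00). Its difference was 2.08 ± 0.76 (adjusted p = 0.476). Both contrasts share the control st libraries with each other and with the TNF-α contrast.

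S5P and S7P differed most at Gramd4, a GRAM domain protein, and at Nr3c2, the mineralocorticoid receptor. Gramd4 had D of 1.76 and 0.826 in S7P and 0.00757 in S5P, a log2 difference of -3.62 ± 0.97 (adjusted p = 0.384). Nr3c2 had 1.15 and 0.971 in S7P and 0 in S5P, a difference of -4.17 ± 1.20 (adjusted p = 0.405). In both genes the single S5P library lay below each S7P library.

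The comparison of control fibroblasts with and without TNF-α asks whether the covered promoters open on stimulation. No promoter was called (0 of 156, 0% of all 13295). At an unadjusted p below 0.05 there were 6 of 156 (3.85%; 3 lower, 3 higher), against 6.21% of all. The median log2 difference (st minus ns) was 0.03 at the 156 promoters, -0.02 at the other expressed promoters and 0 over all when rounded. Zfp319, with the control values given above, had the smallest p (-3.06 ± 0.77, adjusted p = 0.383), followed by Eefsec, with D of 1.05 and 1.24 in control ns (-2.29 ± 0.76, adjusted p = 0.558). The interaction term, which compares the response to TNF-α between knockdown and control fibroblasts, gave no call (0 of 156, 0% of all). Here 4 of 156 (2.56%) and 6.06% of all had an unadjusted p below 0.05.

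The knockdown libraries ask whether coverage of these promoters depends on BAF. The median log2 difference (BAFkd minus control, over ns and st) was 0.03, with quartiles of -0.42 and 0.49, and 0.02 at the other expressed promoters. No promoter was called (0 of 156, 0% of all), 4 of 156 (2.56%; 2 lower, 2 higher) and 5.73% of all had an unadjusted p below 0.05, and the median half-width of the 95% interval was 1.45. All 4 BAFkd libraries were below all 4 control libraries at 2 promoters (1.28%; 1.32% of all), Rabepk and Mir24-2. They were above at 3 (1.92%; 1.39% of all), Cactin, Gtf2ird2 and Phlda1. The names of the BAFkd replicate 1 libraries carry a mark of 4 U where the other 6 carry 12 U; its meaning is not explained in the labels, and its part in these values was not tested.

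Rabepk, a kelch-repeat protein that binds the endosomal GTPase Rab9, had the smallest p for the knockdown. Its D was 1.10, 1.75, 1.08 and 1.07 in the control libraries and 0.475, 0.419, 0.160 and 0 in the BAFkd libraries. The log2 difference was -2.23 ± 0.55 (adjusted p = 0.520). In the pol-II libraries of fibroblasts without a vector, Rabepk was at 1.23, 1.66 and 1.69. Zfp319 followed, with D of 1.13, 1.70, 2.36 and 2.20 in BAFkd and a difference of 2.01 ± 0.55 (adjusted p = 0.592), which rests on its low control st libraries, since BAFkd ns and control ns overlapped. Phlda1, a pleckstrin homology-like protein that is inducible by growth signals, had 0.443, 0.206, 0.593 and 0.598 in control and 1.29, 1.62, 1.06 and 0.967 in BAFkd (1.33 ± 0.50, adjusted p = 0.780). Its D was above 1 in all 4 pooled libraries (1.12 to 1.64), so that the control libraries of Phlda1 depart from the values by which it was chosen.

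**Figure D3:**
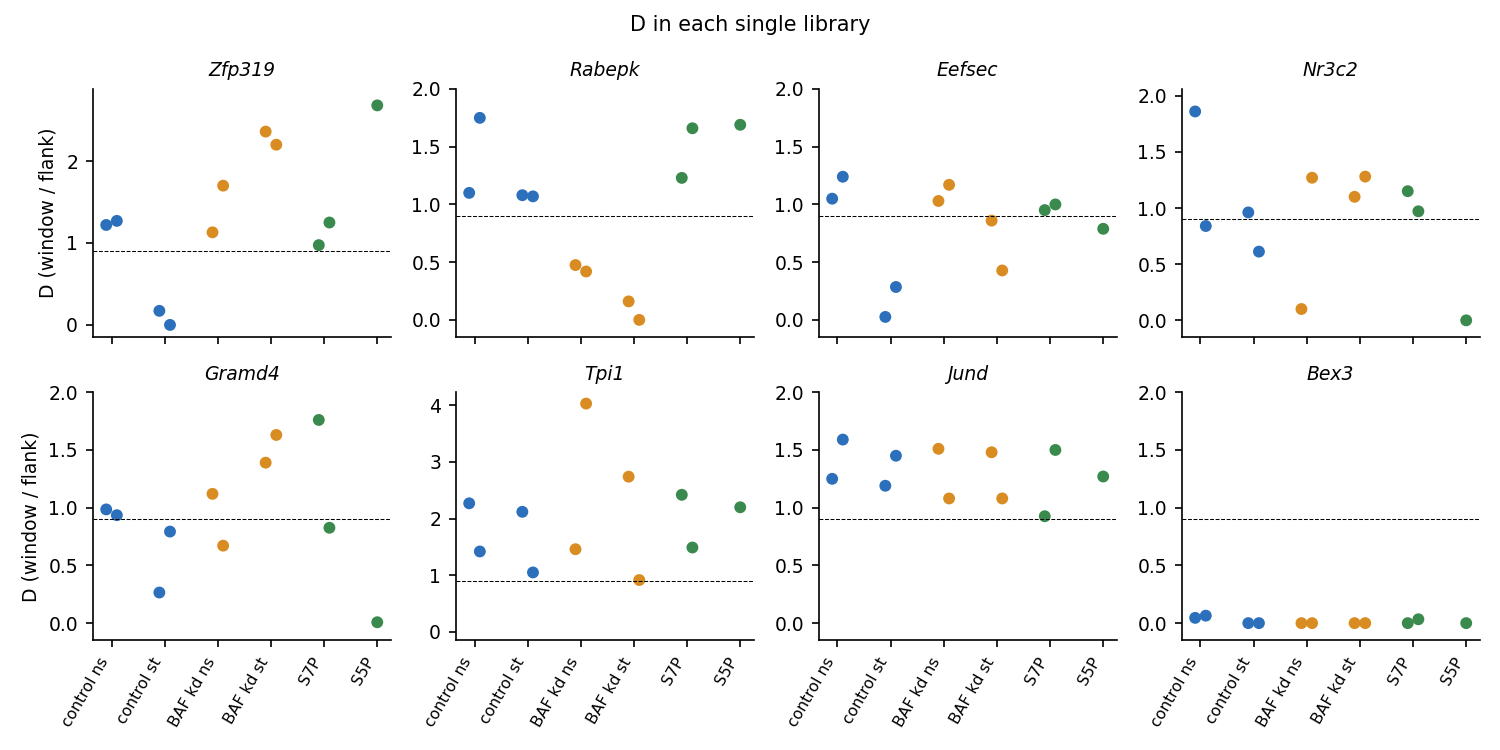
D (window over flank, no unit; axes differ between panels) of 8 promoters in each of the 11 single libraries, by group; each point is a library and the dashed line marks 0.9. Zfp319 and Eefsec are low in control st, Rabepk is at 0.475 or below in the 4 BAFkd libraries, Jund stays between 0.926 and 1.59, and Bex3 is at 0.0647 or below throughout.

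Among the most highly expressed of the 156 promoters were 4 small nucleolar RNAs and 2 protein-coding genes. Snora17, Snora21 and Snora28 guide pseudouridylation of RNA and Snord15b guides methylation. Each of their start sites lies inside a longer host transcript (Snhg7, Rpl23, Eif5 and Rps3, respectively). Snora17 had D from 0.851 to 1.65 over the 8 single H3K4me1 libraries (median 1.07). Snora28 lay lower, between 0.467 and 1.09 (median 0.846). At such starts, transcription from the position itself and from the host promoter cannot be told apart, so the listed start need not be a promoter.

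Tpi1 was expressed at 8.07 in DCs and 68.0 in fibroblasts (FPKM, on separate scales). Its D was 2.27, 1.42, 2.12 and 1.05 in the control libraries and 1.46, 4.03, 2.74 and 0.916 in the BAFkd libraries. In the pol-II libraries Tpi1 was at 2.42, 1.49 and 2.20, so that it stayed above 0.9 in all 15 libraries. Emb, which encodes the cell adhesion protein embigin (11.9 and 156 FPKM), ranged from 0.406 to 2.20 in the single H3K4me1 libraries and was above 0.9 in 5 of 8. Jund, a subunit of the transcription factor AP-1, also remained above 0.9 in all libraries (1.08 to 1.59 in the single H3K4me1 libraries, and 0.926, 1.50 and 1.27 in the pol-II libraries). Psmb10 (0.970 to 1.89 in H3K4me1) fell to 0.504 in 1 S7P library and was at 0.916 and 1.93 in the others.

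Averaged on the log2 scale, the highest ratios of the single H3K4me1 libraries were found at Cactin, a splicing-associated protein, Dtnb, a dystrobrevin, the phosphatase Dusp12 and the ciliary gene Cep290. Cactin had 2.66, 1.68, 2.13 and 1.74 in control and 3.14, 3.74, 5.48 and 4.11 in BAFkd, without overlap (log2 difference 0.94 ± 0.55, limma adjusted p = 0.965). Dusp12, with values from 0 to 15.4, and Cep290, from 0.829 to 4.17, were less even between libraries, and the flank of Dtnb and of Cep290 was empty in control st 2, where the pseudocount sets the ratio. Over the libraries with signal in the flank, a choice made after seeing the data, the mean log2 ratio was 1.01 instead of 1.32 at Dtnb and 0.80 instead of 1.12 at Cep290. Both then lay below Dync1i2, a dynein intermediate chain (1.06, with D from 1.41 to 3.27 over the 8 libraries), which was named for this reason.

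The lowest ratios were at Bex3, C1s1, Reps1 and Ndufb11. Bex3, an X-linked gene with a CpG island, had D of at most 0.0647 in all 11 single libraries, whereas its pooled values were 1.36, 0.940, 1.07 and 1.68. C1s1, a complement protease of the C1 complex, had at most 0.326 in the single libraries, and 1.00 to 1.49 in the pooled ones. For Bex3 and C1s1 the single libraries go against the pooled ones by which they were chosen, in fibroblasts of the same line. Reps1, an endocytic protein, was at 0 in 5 of the 8 single H3K4me1 libraries but at 0.972 in control st 1 and at 1.26 in S5P. Ndufb11, a subunit of respiratory complex I, was at 0 in 6 of 8, and at 1.02 and 3.33 in the other two. H60b was below 0.9 in all 8 (0 to 0.885); it belongs to a family of similar genes, between which the reads may not be resolved.

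The 156 promoters differed from the other expressed promoters in sequence. A CpG island (GC content above 50% and CpG ratio above 0.6 within 200 bp of the start) was present at 69 of 156 (44.2%, 95% Wilson interval 36.7% to 52.1%), at 82.4% of the other expressed promoters (81.4% to 83.4%) and at 12.4% of those listed at 0 (10.9% to 14.1%). The median GC content was 57.5%, 63.7% and 51.7%, and the median CpG ratio 0.599, 0.818 and 0.255. On each measure the 156 promoters lay between the groups. These intervals cover counting error over promoters only.

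The motif TATAAA, searched on the strand of the gene from -40 to -20 bp, was found at 3 of 156 (1.92%), at 0.712% of the other expressed promoters, at 4.62% of those listed at 0 and at 1.68% of all covered promoters. The interval of the 156 promoters (0.656% to 5.50%) includes each of these shares. With TATATA added, the counts became 3 of 156 (1.92%) and 2.35% of all. Runs of 8 A or 8 T in the window, which are stiff and disfavor nucleosomes, were present at 7 of 156 (4.49%), compared with 2.73% of the other expressed promoters, and the interval (2.19% to 8.97%) includes that share.

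They also differed from the other expressed promoters in position. The start lay inside a longer transcript of the same strand, one that begins more than 500 bp upstream, at 52 of 156 (33.3%, interval 26.4% to 41.1%), compared with 15.7% of the other expressed promoters and 24.7% of those listed at 0. Another start site was listed in the flank at 17.9% and 10.4%. A start on the opposite strand within 1 kb, as in divergent promoters, was present at 19.9% (14.4% to 26.8%), against 28.9%. Over all covered promoters these 3 shares were 20.4%, 10.2% and 19.3%, respectively. The last one lies inside the interval of the 156 promoters. The start was supported by a GENCODE transcript start within 50 bp at 134 of 156 (85.9%, 79.6% to 90.5%) and at 90.3% of the other expressed promoters.

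CpG islands were less frequent at starts inside a longer transcript. Of the 52 promoters inside a longer transcript, 8 had a CpG island, and of the 104 others 61 had one, which leaves 43 promoters with neither property. The median D over the single H3K4me1 libraries was 1.01 at the 69 CpG island promoters, 1.10 at the 87 without, 1.10 at the 52 inside a longer transcript and 1.03 at the 104 others. In the S5P library the medians of these 4 subsets were 1.26, 1.18, 1.27 and 1.18. The lack of depletion was therefore not restricted to CpG-poor or intragenic starts.

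**Figure D4:**
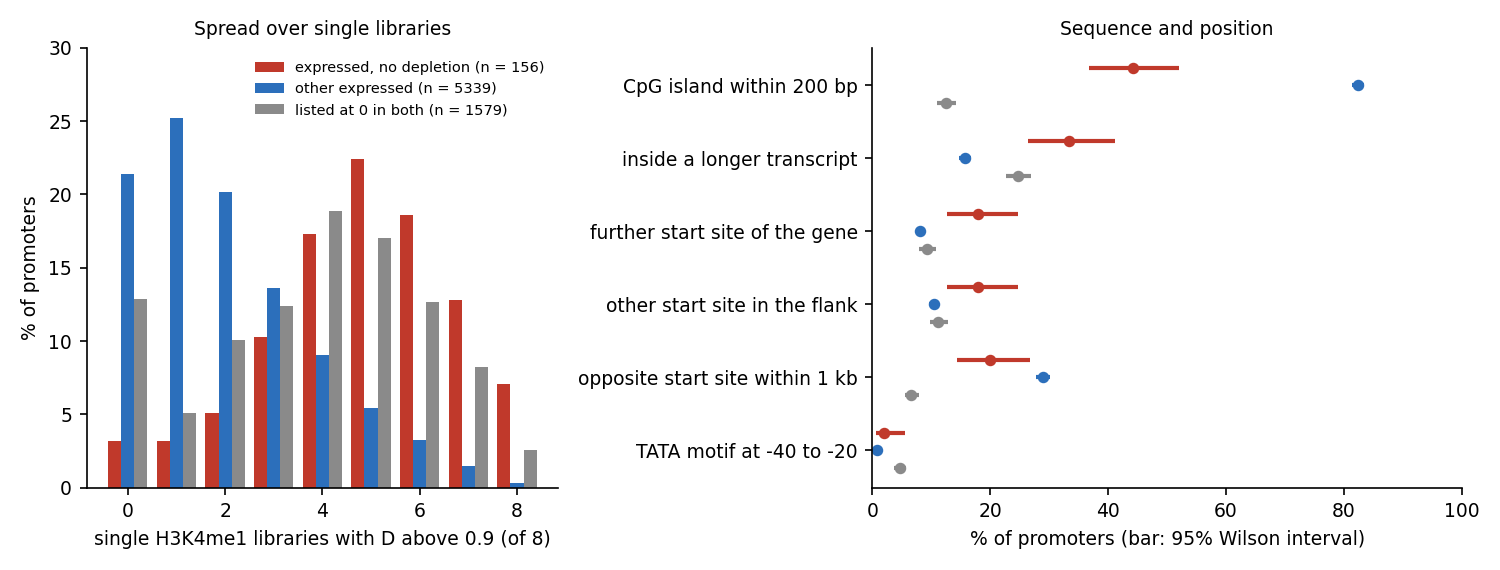
Left, the share of promoters (%) by the number of single H3K4me1 libraries in which D exceeded 0.9; right, the share (%) with each sequence or position feature, with 95% Wilson intervals as bars. The 156 promoters most often exceeded 0.9 in 5 libraries (22.4%), the other expressed promoters in 1, and the CpG island share of the 156 (44.2%) lies between those of the other groups (82.4% and 12.4%).

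A further start site of the same gene, more than 500 bp away, was listed at 28 of the 156 promoters (17.9%, interval 12.7% to 24.7%) and at 8.09% of the other expressed promoters. Over all covered promoters the share was 14.1%, which lies inside this interval. At 26 of the 28 the further start had enough coverage. In the single H3K4me1 libraries it had a median D of 0.537, compared with 1.13 at the starts without depletion, and it was the lower one in 21 of 26 genes. For 376 other expressed promoters with such a further start, it was at 0.703, compared with 0.610 at the promoter itself, and lower in 46.0%. The 156 starts were chosen for high D. In both groups, where a gene had several covered further starts, the one with the lowest mean D in the pooled libraries was taken. A lower value at the further start of the 156 therefore follows in part from both choices. At some of the 26 genes, such as Golga5, Dtnb and Lrrc8d, the further start lay in the flank of the start without depletion. Its occupancy is then part of the divisor of D at that start, an effect that was not tested. The further start was below 0.5 in 12 of 26 genes (46.2%) and in 34.3% of the 376. It lay upstream in 21 of 26 (80.8%) and in 53.7% of the 376.

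The further starts with the lowest pooled D belonged to Elovl1, a fatty acid elongase, Golga5, a golgin, Zmynd8, a chromatin reader, and Agpat1, an enzyme of phospholipid synthesis. The Golga5 start without depletion (position 103708121 of chromosome 12, plus strand) had a median D of 1.14, and the start 776 bp upstream 0.0854. In S5P these values were 1.36 and 0.0135. The window of the upstream Golga5 start lies in the flank of the other start, so its low occupancy also lowers the divisor of D there. The Golga5 values are therefore not independent, and D with a flank free of this overlap was not tested. For Elovl1, the start without depletion (position 118102307 of chromosome 4, plus strand) was at 1.13 and the start 1608 bp upstream at 0.0447. Zmynd8 had 0.949 and 0.170 at starts 26578 bp apart, and Agpat1 1.00 and 0.265 at starts 3153 bp apart. All 4 undepleted starts were downstream of the depleted one. The depleted start was not always the more highly expressed one. In fibroblasts the undepleted start was listed higher in all 4 genes, for Golga5 at 19.3 FPKM against 0.139 at the upstream start, and for Elovl1 at 4.44 against 0. In DCs the upstream start was the higher one for Golga5 (1.80 against 0.546) and Agpat1 (1.30 against 0.287), and the undepleted start for Elovl1 and Zmynd8. The undepleted starts had been chosen above an expression cutoff in both cell types, whereas the further starts had not. Higher expression at an undepleted start therefore follows in part from the choice. Expression was not compared over the remaining pairs. At Mat2b, the regulatory subunit of methionine adenosyltransferase, the undepleted start was at 6.79 and the further start, with a median D of 0, at 71.4 in fibroblasts. How the listed values divide reads between overlapping transcripts was not tested.

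**Figure D5:**
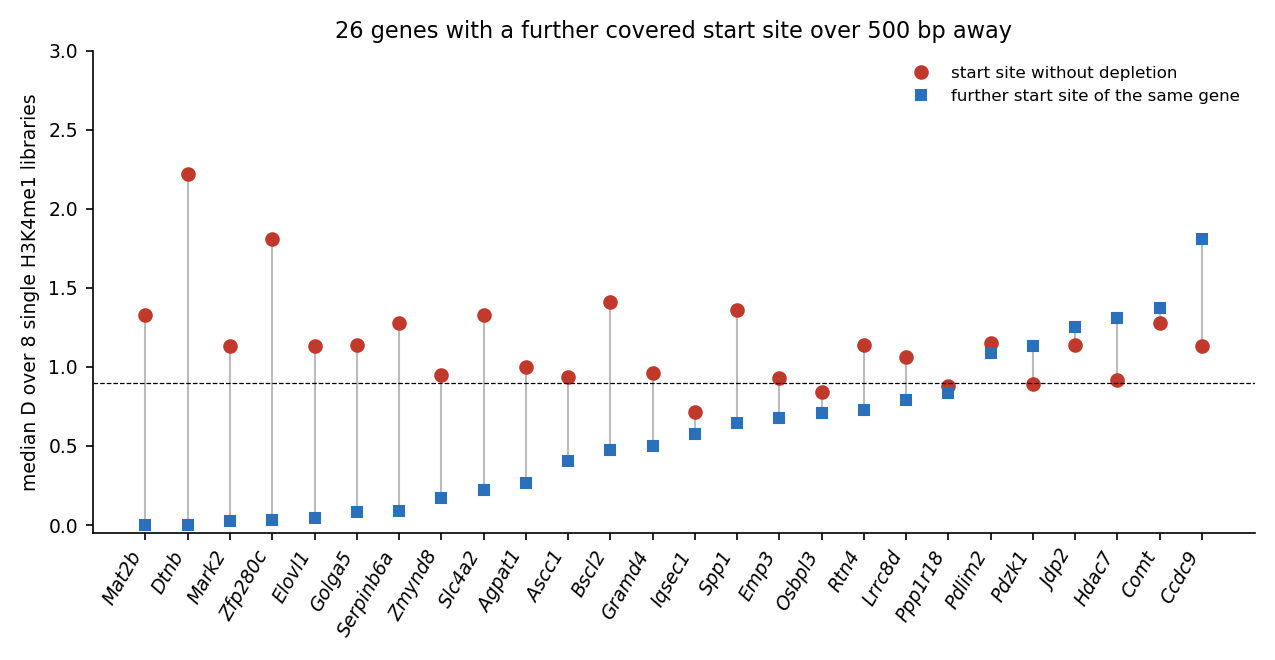
Median D over 8 single H3K4me1 libraries (no unit) for 26 genes, at the start site without depletion (circle) and at a further start site of the same gene (square), ordered by the latter; the dashed line marks 0.9. The square is the covered further start with the lowest mean pooled D, and lies below the circle in 21 of 26 genes. It reaches 0 at Mat2b and Dtnb.

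The 156 promoters were spread over many gene families. Of 33 expressed promoters of cytosolic ribosomal proteins and 56 of mitochondrial ribosomal proteins none was among them, nor any of 16 NF-κB and TNF targets, 17 lysosomal genes, 16 actin and adhesion genes, 7 matrix genes, 6 replication-dependent histones and 6 BAF subunits. The share over all expressed promoters was 2.84%. The proteasome contributed 1 of 24 (Psmb10, also in the list of MHC class I presentation, 1 of 9), glycolysis 1 of 7 (Tpi1) and immediate early genes 1 of 11 (Jund). Numbered zinc fingers contributed 2 of 130 (1.54%; Zfp319 and Zfp280c), solute carriers 4 of 88 (4.55%; Slc4a2, Slc25a45, Slc4a1ap and Slc25a26) and noncoding RNAs 10 of 232 (4.31%). Besides the 4 small nucleolar RNAs above, the noncoding group held Snora34, the minor spliceosomal RNA Rnu11, the microRNA Mir24-2, A930004D18Rik, Gm9833 and NR_027905.

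Within these families the values differed. Mir24-2 had D of 1.73, 1.65, 1.55 and 1.52 in control and 1.39, 0.909, 0.892 and 0.635 in BAFkd, which do not overlap (log2 difference -0.74 ± 0.49, limma adjusted p = 0.974), and was at 1.25, 1.05 and 0.934 in pol-II. Whether the start listed for this microRNA is a promoter was not tested. Rnu11, in contrast, was below 0.9 in all 8 single H3K4me1 libraries (0 to 0.772). Among the solute carriers, Slc4a2, an anion exchanger, ranged from 0.819 to 1.91 and Slc25a45, a mitochondrial carrier, from 0.613 to 2.29, whereas Slc4a1ap, an adaptor protein, reached from 0 to 2.29. Zfp280c was at 0.00405 in control ns 2 and from 1.39 to 4.23 in the other 7 libraries.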

How the data were processed

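The authors digested ChIP-enriched chromatin with MNase and aligned reads to mm9; the methods name bowtie, the submitters' processing notes Bowtie2 (version 2) and bedtools. The deposited signal is nucleosome occupancy in 200 bins of 10 bp around each start site, scaled by the authors to the surrounding 1 kb and smoothed over 50 bp. H3K4me1 reads were single-end, and pol-II fragments of 140 to 180 bp paired-end. The deposited promoter table gives a coverage score and FPKM for non-stimulated cells of each type. The authors took the expression data from public RNA-seq, so they were not measured on the cells of the ChIP-MNase libraries. Its 2 columns of stimulation changes are the authors' own comparisons and were not used. Symbols were matched by accession for 96.3% of rows.

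The log2 ratio of window to flank (each over the library mean, plus 0.1) of 11 single libraries was fitted with limma (R; 6 group means), with Benjamini-Hochberg adjustment over 13295 promoters with signal in every single library, after a check on simulated data. The methods call the replicates biological; each group has at most 2 libraries. Empty flanks leave D undefined. Same-numbered libraries did not deviate together. The named promoters were the 6 with the highest expression rank in both cell types, the 2 with the smallest p per comparison, the 4 highest and 4 lowest mean log2 ratios over single H3K4me1 libraries, the 2 nearest the threshold on either side, up to 3 per gene list by score, and the 4 with the lowest D at a further start. Others were named after their values were seen. Members, lists and tests were chosen with earlier results of these data known. Alternatives changed the pseudocount, window, flank, filters, scaling, thresholds and libraries.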

Additional observations from a re-analysis of the deposited data

How the results depend on the processing

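No member was called in any comparison under any alternative, and the share at CpG islands, the median D over the single H3K4me1 libraries and the number of promoters above 0.9 in all 8 stayed within their spread or within 1.5 times. The median log2 difference of the 156 promoters (0.02 for S7P, 0.26 for S5P, 0.29 for S5P against S7P, 0.03 for TNF-α, 0.03 for the knockdown, -0.04 for the interaction of both) moved by more than 0.0590, the SD of the group median between replicates, as follows. With the window from -200 to +50 bp it was 0.09 for S7P, 0.16 for S5P and 0.11 between them. With libraries centered on their median it was -0.05, 0.71 and 0.80, and 0.15 for the interaction. With a pseudocount of 0.5 it was 0.18 for S5P, 0.20 between S5P and S7P and 0.03 for the interaction, and with the flank on both sides 0.32 for S5P. With D > 0.8 (250 promoters) it was 0.09 for S7P and 0.03 for the interaction. With D > 1.0 (97 promoters) it was -0.06 for S7P, 0.36 between S5P and S7P and 0.12 for TNF-α. With a score above 200 (85 promoters) it was 0.36 between S5P and S7P, 0.14 for the knockdown and -0.11 for the interaction. With only the groups compared it was 0.10 for TNF-α. Leaving out 1 library at a time gave -0.05 to 0.14 for S7P, 0.15 to 0.30 for S5P, 0.21 to 0.29 between them, -0.06 to 0.04 for TNF-α, -0.06 to 0.08 for the knockdown and -0.11 to 0.09 for the interaction, so that the sign of the S7P, TNF-α, knockdown and interaction medians depends on single libraries; the cause was not tested. The correlation of same-numbered libraries' deviations was -0.0165 to 0.0273, and a replicate block gave no call either and medians of 0.02 for S7P, 0.03 for TNF-α and 0.03 for the knockdown. The interaction, the mean ratios without empty flanks and the subsets without noncoding or intragenic starts were added after seeing the data. The replicate spread and the empty bins limit what a single promoter can show.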
